A study of Mus musculus with 12 samples.

Results

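The contractile actin cytoskeleton genes described here are 10 genes chosen by name: Srf, Acta2, Actg2, Tagln, Cnn1, Cnn2, Myl9, Tpm1, Tpm2 and Vcl. They were chosen with earlier results of these data known. Their medians and counts set beside those of all genes therefore describe them and are no test of the set. All 10 have a row among the 39423 genes of the count and FPKM tables. Their levels were followed in 3T3-L1 cells, a mouse preadipocyte line that becomes adipocytes after confluent cells receive dexamethasone, 3-isobutyl-1-methylxanthine and insulin (DMI, written MDI in the sample labels). Cells carried either a nontargeting control siRNA (siCtrl, NC in the labels) or siRNA against PRMT1 (siPRMT1), the enzyme that deposits most asymmetric dimethylarginine in mammalian cells. RNA was sequenced after 24 h (day 1) and 72 h (day 3) of DMI, with 3 libraries in each of the 4 conditions. All cells had received siRNA and DMI, so uninduced and untransfected cells were not analysed here. Which of the PRMT1 siRNAs went into the sequenced cells is not given in the sources used here. The labels number the replicates but do not say whether they were separate cultures, so p-values measure the spread between these libraries, which may be technical.

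Actin filaments pull when myosin II slides along them, and tropomyosin and calponin sit along the filament and control its access to myosin. Vinculin ties the filament ends to integrin adhesions at the membrane. The transcription factor SRF switches on many of these genes through a DNA element called the CArG box, together with MRTF cofactors that are released when free actin monomers run low. In preadipocytes, the loss of actin stress fibers and cell rounding accompany adipogenesis. The smooth muscle actins ACTA2 and ACTG2, together with transgelin, calponin 1 and MYL9, are classical markers of smooth muscle cells and myofibroblasts.

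The CArG box is 10 bases long: CC, then 6 bases that are each A or T, then GG, a pattern that reads the same on both strands. It was searched in RefSeq promoter sequences on GRCm38.p6, which run from 250 bases before to 50 bases after each gene start. Gene starts given below are those of the promoter sequences. As counted, Srf reaches further upstream, to chr17:46557214, and Acta2 to chr19:34255585, so the boxes shown for these genes lie within the counted span. A full match was present in 535 of 32851 promoters (1.63%). Of the 8 members in the promoter table, 4 had one: Srf itself, with a pair of boxes, Cnn2, Myl9 and Vcl. These windows are shown because the SRF element is what the promoters of the set are known for, each with the box in capitals and 10 bases on either side, 5′ to 3′ on the strand of the gene.
Srf, chr17:46556225-46556254, minus strand, box 82 bases before the gene start: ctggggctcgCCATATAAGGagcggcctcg
Srf, chr17:46556205-46556234, minus strand, box 62 bases before the gene start: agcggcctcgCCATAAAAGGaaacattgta
Cnn2, chr10:79988534-79988563, plus strand, box 56 bases before the gene start: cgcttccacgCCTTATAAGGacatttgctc
Vcl, chr14:20929161-20929190, plus strand, box 227 bases before the gene start: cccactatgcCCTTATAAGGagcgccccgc
Myl9, chr2:156775293-156775322, plus strand, box 161 bases before the gene start: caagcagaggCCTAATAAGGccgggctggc
The second Srf window begins within the first, so the pair lies close together. Cnn2 and Vcl held the same 10 letters. With 1 mismatch allowed, a box was found in 21.1% of all promoters and in 6 of the 8 members, Acta2 and Tpm1 being added. The Acta2 promoter held a pair of such boxes, shown because Acta2 was the most abundant member at day 3.
Acta2, chr19:34255438-34255467, minus strand, box 84 bases before the gene start: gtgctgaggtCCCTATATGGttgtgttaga
Acta2, chr19:34255388-34255417, minus strand, box 34 bases before the gene start: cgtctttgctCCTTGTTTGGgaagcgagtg
A match describes the letters of the window and does not show that SRF binds there.

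The libraries held 15116462 to 42357137 counts on genes. The deepest was siCtrl day 1 replicate 1 and the shallowest siCtrl day 3 replicate 2. The library siCtrl day 1 replicate 3 stood apart from the rest of its condition: the chi-square per gene of its counts was 50.6 and 30.8 against the other 2 libraries, while it was 4.14 to 15.8 for all other pairs of replicates. The main counts of changed members that rest on it are also given without it below. Most values of single genes and of gene lists that include it are given with it only. Levels are given below as FPKM, the deposited counts divided by gene length and library total. The length is that of all counted exon bases of a gene, which can exceed that of its transcripts. For Srf it was 5170 bases, against 2616 in the longest coding transcript, and for Acta2 2834 against 2035. Levels are therefore only roughly comparable between genes, while differences between conditions within a gene do not depend on the length. Differences between conditions are log2 fold changes from edgeR's quasi-likelihood test on the counts, with Benjamini-Hochberg adjustment over all genes tested, and a gene is called changed where the adjusted p is under 0.05 and the change exceeds 0.5 on the log2 scale in either direction. The targeted gene, Prmt1, was lower in siPRMT1 cells at both days, by a log2 fold change of -1.11 on day 1 and one of -0.88 on day 3. The cells carried the markers of their labelled type. The summed FPKM of 6 adipocyte markers lay between 144 and 149 in siCtrl and between 109 and 123 in siPRMT1 libraries at day 1, and between 2068 and 2239 in siCtrl and between 1627 and 1843 in siPRMT1 libraries at day 3. That of 6 preadipocyte and fibroblast markers lay between 1040 and 1179, 988 and 1048, 459 and 502, and 557 and 648 in the same order of conditions. Of 6 skeletal muscle markers, the summed FPKM was at most 7.34 in any library, with Myod1 at 0, and of 6 smooth muscle markers at most 17.3, with Kcnmb1 at 0. Macrophage and endothelial marker lists of 4 genes each summed to at most 2.4 and 0.88 FPKM, with Ptprc at 0.

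Of the 10 members, 8 passed the filter on low counts in every comparison. Tagln (transgelin, an actin-binding protein of smooth muscle) and Cnn1 (calponin 1, the smooth muscle calponin) did not pass it in any. Tagln had 0 to 2 counts per library and 6 counts over all 12 libraries. This level cannot be read as the level of the transcript: of the 1586 exon bases that the count table gives Tagln (chr9:45929628-45936058, minus strand, mm10), 1361 (85.8%) also lie in exons of Pcsk7, which runs on the opposite strand and had 922 to 2457 counts per library. How reads on such shared bases were assigned, and whether strand was used, is not given in the sources used here. Among protein-coding genes with at least 85% of their exon bases shared with another gene, 16 of 57 (28.1%) had 10 or more counts over the 12 libraries, against 64.5% of the 16598 genes that share no base. Cnn1 shares no exon base with another gene and had 0 to 9 counts per library, with 11 counts in the 3 siCtrl and 10 in the 3 siPRMT1 libraries at day 1, and 3 and 13 at day 3. Its FPKM was at most 0.15. A count of 0 allows up to 3 counts, or 0.198 CPM (counts scaled to a common library total) in the shallowest library and less in the others, for counting error only. Neither gene is used below.

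The other 8 genes spanned levels from 0.88 to 154 FPKM. At day 1 in siCtrl cells, Cnn2 and Vcl were highest with means of 67.1 ± 7.14 and 66.5 ± 3.67 FPKM (SD, n = 3), and their ranges overlapped. Next came Tpm1 (35.4 ± 0.81), Acta2 (26.3 ± 2.92), Tpm2 (18.0 ± 1.91) and Srf (13.96 ± 1.24), each apart from the next. Actg2 (1.56 ± 0.29) and Myl9 (1.13 ± 0.35) were lowest and overlapped. By day 3 in siCtrl cells Acta2 stood first at 106 ± 10.002 FPKM, overlapping with Vcl at 98.3 ± 1.59. In FPKM, Actg2 at 18.4 ± 1.19 had come level with Srf at 18.9 ± 1.38. Their counted lengths were 1315 and 5170 bases, so this order depends on the lengths used. In siPRMT1 cells at day 3, Acta2 at 148 ± 5.79 FPKM lay apart from all other members.

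**Figure D1:**
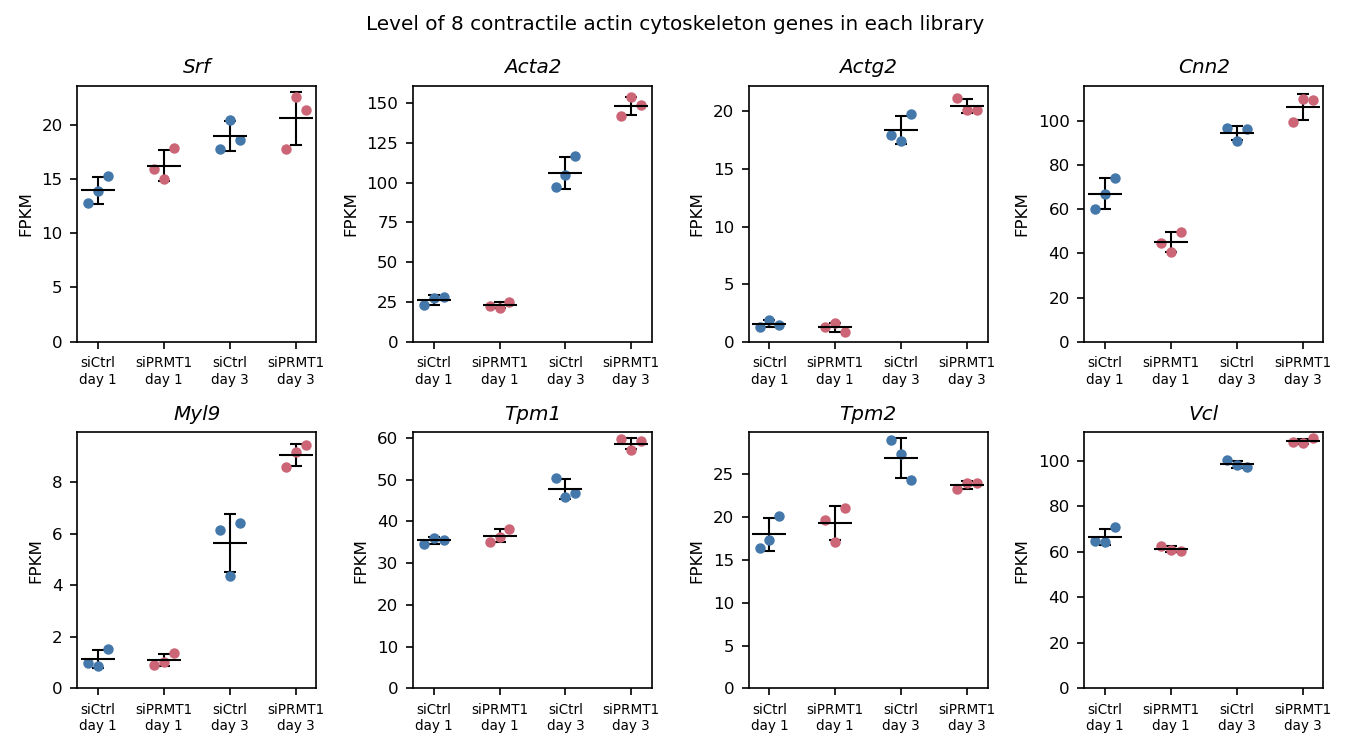
FPKM of the 8 members that passed the filter on low counts, in each of the 12 libraries (y axis from 0, scaled per gene). Points are libraries, blue for siCtrl and red for siPRMT1, and black bars are the mean and SD of 3 libraries. All 8 genes have a higher mean at day 3 than at day 1 under either siRNA, and Acta2 ranges from 21.2 to 154 FPKM.

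The first comparison asks how the genes moved between day 1 and day 3 of DMI. All 8 were higher at day 3 at an adjusted p under 0.05 in siCtrl and in siPRMT1 cells, with median log2 fold changes of 0.50 and 1.02, against medians of -0.0042 and 0.0022 over all genes tested. With the fold threshold, 4 members were called higher in siCtrl cells, where 22.7% of 13829 genes were called higher and 20.4% lower. In siPRMT1 cells, 6 were called higher, where 19% of 14224 genes were called higher and 17.4% lower. No member was called lower in either, by edgeR, DESeq2 or limma, and none had a negative log2 fold change. In these bulk samples, more cells that make a transcript and more transcript per cell cannot be told apart. The adipocyte marker sum rose and the preadipocyte and fibroblast marker sum fell over the same days. In siCtrl cells, 3 of 4 tested smooth muscle markers were also called higher, Myh11 at 3.40, Des at 2.78 and Lmod1 at 0.73. The other, Smtn, the most abundant of them, was called lower, at -0.57 in siCtrl and -0.73 in siPRMT1 cells. Also called higher in siCtrl cells were the macrophage markers Csf1r (3.42) and Cd68 (0.54) and the endothelial markers Pecam1 (2.46) and Cdh5 (2.14). Over the 3 siCtrl libraries at day 1, Csf1r had 6 counts, Cdh5 19 and Pecam1 32. In siPRMT1 cells, Csf1r (3.31) and Pecam1 (1.77) were called higher, Cd68 (-0.15) was not called and Cdh5 did not pass the filter. The smooth muscle sum went from between 10.6 and 15.9 FPKM to between 16.7 and 17.3 in siCtrl libraries, and from between 14.2 and 16.7 to between 13.96 and 15.9 in siPRMT1 libraries. The part of these markers in the result was not tested.

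By log2 fold change, Actg2 rose most among the members in both courses, followed by Myl9 and Acta2. Actg2 encodes the gamma actin of gut smooth muscle. It had 1.31, 1.88 and 1.5 FPKM in the 3 siCtrl libraries at day 1 and 17.98, 17.46 and 19.74 at day 3, with no overlap. Its log2 fold change was 3.51 (SE 0.15, adjusted p = 6.6e-08) in siCtrl cells. In siPRMT1 cells it went from 1.27, 1.67 and 0.88 FPKM to 21.19, 20.16 and 20.14, a log2 fold change of 3.98 (SE 0.15, adjusted p = 4.2e-11). Acta2 encodes the alpha actin of vascular smooth muscle and myofibroblasts. It had 22.92, 27.47 and 28.37 FPKM in siCtrl libraries at day 1 and 97.1, 104.74 and 116.93 at day 3, a log2 fold change of 1.95 (SE 0.11, adjusted p = 3.5e-07). In siPRMT1 libraries it had 22.8, 21.19 and 25.2 FPKM at day 1 and 142.11, 153.61 and 149.02 at day 3. The log2 fold change there was 2.67 (SE 0.07, adjusted p = 1.2e-12).

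Taken as a share of the summed FPKM of the 6 actin genes, the Acta2 value on day 1 was 2.29% ± 0.28 (SD, n = 3) with siCtrl and 2.08% ± 0.14 with siPRMT1. On day 3 these shares were 6.42% ± 0.48 and 8.12% ± 0.29, and the ranges of the 2 siRNAs did not overlap. Actg2 was 0.14% and 0.12% at day 1 and 1.11% and 1.12% at day 3. Actb and Actg1, the cytoplasmic actins of nonmuscle cells, had condition means of 47.9% to 53.9% and 42.2% to 44.4% of the sum. Reads of Actg1 are the least certain, since 56.7% of the 50-base windows of its transcript occur without a mismatch in transcripts of other genes, mainly pseudogenes, against 14.2% for Actb, 0.352% for Acta2 and 0 of 1284 windows for Actg2. Acta1, the skeletal muscle actin, rose from 0.09, 0.09 and 0.15 FPKM to 4.88, 4.0 and 6.8 in siCtrl cells, a log2 fold change of 5.53 (SE 0.32, adjusted p = 3.7e-07), and stayed under 0.41% of the sum in every library.

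**Figure D2:**
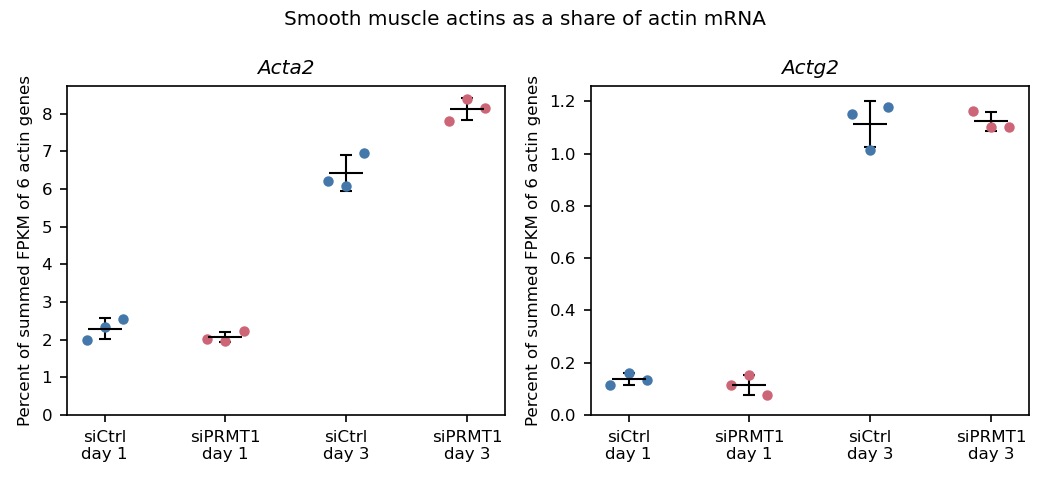
Acta2 and Actg2 as a percentage of the summed FPKM of Acta1, Acta2, Actb, Actc1, Actg1 and Actg2 in each library (y axis from 0). Points are libraries, blue for siCtrl and red for siPRMT1, and black bars are the mean and SD of 3. The Acta2 share is 2.29% and 2.08% at day 1 and 6.42% and 8.12% at day 3, while the Actg2 share at day 3 is 1.11% and 1.12%.

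Myl9 encodes the regulatory light chain of smooth muscle and nonmuscle myosin II, whose phosphorylation starts contraction. It had 0.99, 0.88 and 1.53 FPKM in siCtrl libraries at day 1 and 6.15, 4.37 and 6.43 at day 3, a log2 fold change of 2.27 (SE 0.23, adjusted p = 2e-05). In siPRMT1 libraries it had 0.92, 1.02 and 1.38 FPKM at day 1 and 8.59, 9.17 and 9.43 at day 3, a log2 fold change of 3.02 (SE 0.14, adjusted p = 4.8e-10). It rested on few counts at day 1, 22 to 49 per library.

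The remaining genes were already abundant at day 1 and rose less. Cnn2, a calponin of nonmuscle cells, had a log2 fold change of 0.43 (SE 0.09, adjusted p = 0.0031) in siCtrl and was called at 1.23 (SE 0.07, adjusted p = 4e-09) in siPRMT1 cells. Cnn3, another calponin but no member, had a mean of 119 FPKM in siCtrl cells at day 1. It was called lower over the course in siCtrl cells, at -0.61 (SE 0.09, adjusted p = 0.00028), and was not called in siPRMT1 cells, at 0.09. Vcl (vinculin) had 0.49 (SE 0.07, adjusted p = 0.00022) in siCtrl and was called at 0.81 (SE 0.05, adjusted p = 1.2e-08) in siPRMT1 cells. Tpm1, a tropomyosin of muscle and of stress fibers, had 0.36 (SE 0.07, adjusted p = 0.0019) in siCtrl and was called at 0.67 (SE 0.06, adjusted p = 1.5e-07) in siPRMT1 cells. Cnn2, Vcl and Tpm1 thus lay under the fold threshold in siCtrl cells and over it in siPRMT1 cells.
Tpm2, the beta tropomyosin, had the opposite order: it was called in siCtrl cells at 0.51 (SE 0.11, adjusted p = 0.0023) and had 0.29 (SE 0.07, adjusted p = 0.0032) in siPRMT1 cells. Srf had 0.37 (SE 0.10, adjusted p = 0.0101) in siCtrl and 0.33 (SE 0.08, adjusted p = 0.0035) in siPRMT1 cells, so its own rise was under the fold threshold in both. In siCtrl cells, several of these values lay so near the threshold that 1 library moved the call. Without siCtrl day 1 replicate 3, the library that stood apart, 6 members were called higher. Tpm2 fell under the threshold, at 0.43, 0.47, 0.42 and 0.44, when siCtrl day 1 replicate 1, siCtrl day 1 replicate 2, siCtrl day 3 replicate 1 or siCtrl day 3 replicate 2 was left out, and Cnn2 and Vcl passed it at 0.50 and 0.54 without siCtrl day 1 replicate 3.

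The next comparison asks what PRMT1 knockdown did at day 1. Cnn2 was the member that changed. It had 60.11, 66.9 and 74.39 FPKM in siCtrl and 44.84, 40.8 and 49.69 in siPRMT1 libraries, with all 3 siPRMT1 libraries under all 3 siCtrl libraries. Its log2 fold change was -0.62 (SE 0.10, adjusted p = 0.0115), a level 0.649 times that of siCtrl cells. The call was lost when siCtrl day 1 replicate 2, siPRMT1 day 1 replicate 1 or siPRMT1 day 1 replicate 2 was left out, at adjusted p of 0.055, 0.057 and 0.053 from edgeR, with log2 fold changes of -0.62, -0.64 and -0.58. Without siCtrl day 1 replicate 3, the library that stood apart, the Cnn2 value was -0.55 (adjusted p = 0.00029) and it was again the 1 member called. The 1 member called lower stands against 1.61% of 13689 genes called lower and 1.95% called higher, and 0 members were called higher, by edgeR, DESeq2 and limma alike, with 0 at an unadjusted p under 0.05 by edgeR.

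Vcl had 64.46, 64.27 and 70.72 FPKM in siCtrl and 62.54, 60.81 and 60.11 in siPRMT1 libraries at day 1. The ranges did not overlap, but the log2 fold change of -0.17 (95% interval -0.31 to -0.03, adjusted p = 0.1258) did not pass the test. For Acta2, with -0.24 (95% interval -0.46 to -0.01, adjusted p = 0.1905), and Actg2, with -0.32 (95% interval -0.91 to 0.28, adjusted p = 0.5052), the ranges overlapped. The other 4 genes had log2 fold changes between -0.06 for Myl9 and 0.17 for Srf. Over the 8 members the median was -0.12 and 2 were positive, against a median of 0.0096 over all genes tested. The sign of Tpm1, at -0.01, is positive on the deposited FPKM, which carry no normalization beyond the library total, and those of Myl9 and Tpm2 turned when single libraries were left out. For Cnn2 and Vcl, 2 of the 8 members, the groups did not overlap in CPM, and this was so in either direction for 32.2% of all genes tested. The adipocyte marker sum was lower in siPRMT1 than in siCtrl libraries at this day too, without overlap, and its part in the result was not tested.

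At day 3, Myl9 was the member called changed by the knockdown, and it was higher. All 3 siPRMT1 libraries, at 8.59, 9.17 and 9.43 FPKM, lay above the siCtrl libraries at 6.15, 4.37 and 6.43. The log2 fold change was 0.66 (SE 0.13, adjusted p = 0.0027), and the call held without any 1 library. Beside this 1 member, 2.84% of 14039 genes were called higher and 3.8% lower. No member was called lower by edgeR, DESeq2 or limma, with 1 (Tpm2) at an unadjusted p under 0.05 by edgeR.

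Acta2 and Tpm1 passed the adjusted p at day 3 with a difference under the fold threshold. Acta2, with the values given above, had no overlap between siCtrl and siPRMT1 libraries and a log2 fold change of 0.47 (SE 0.08, adjusted p = 0.00063), a level 1.39 times that of siCtrl cells. Without siCtrl day 3 replicate 3, the highest siCtrl library, it was 0.55 and called. Tpm1 had 50.46, 45.95 and 46.89 FPKM in siCtrl and 59.63, 57.07 and 59.24 in siPRMT1 libraries, again with no overlap, and a log2 fold change of 0.29 (SE 0.07, adjusted p = 0.0072).

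The other 5 genes did not pass the test at day 3. Cnn2 had 96.85, 91.03 and 96.28 FPKM in siCtrl and 99.66, 110.03 and 109.57 in siPRMT1 libraries, a log2 fold change of 0.16 (95% interval 0.02 to 0.30, adjusted p = 0.1111). The value of Vcl was 0.14 (95% interval 0.0025 to 0.27, adjusted p = 0.1528) and that of Actg2 0.15 (95% interval -0.04 to 0.33, adjusted p = 0.2611). Srf, at 17.71, 20.43 and 18.62 FPKM in siCtrl and 17.78, 22.52 and 21.37 in siPRMT1 libraries, had 0.11 (95% interval -0.07 to 0.30, adjusted p = 0.4086) and was the single tested member whose ranges overlapped. Tpm2 had 28.98, 27.33 and 24.35 FPKM in siCtrl and 23.27, 24.01 and 24.03 in siPRMT1 libraries, with a log2 fold change of -0.18 (95% interval -0.34 to -0.02, adjusted p = 0.1102), and so went the other way from Tpm1. In 7 of the 8 members the groups did not overlap in CPM, against 34.8% of all genes tested in either direction. The median of the 8 was 0.15 and 7 were positive, against a median of 0.0073 over all genes. At this day the adipocyte marker sum was lower and the preadipocyte and fibroblast marker sum higher in siPRMT1 than in siCtrl libraries, without overlap. The rise of the preadipocyte and fibroblast sum rests largely on Col1a2, with means of 256 FPKM in siCtrl and 354 in siPRMT1 libraries. In that list 5 of 6 log2 fold changes were positive and Pdgfra was the 1 called higher. Dlk1 had means of 21.5 and 20.6 FPKM. Lower without overlap in siPRMT1 libraries were also the smooth muscle sum (13.96 to 15.9 against 16.7 to 17.3 FPKM), the skeletal muscle sum (4.76 to 5.09 against 7.16 to 7.34) and the endothelial sum (0.58 to 0.68 against 0.79 to 0.88), opposite in direction to most members. Des (desmin), the muscle intermediate filament protein in both muscle lists, had a log2 fold change of -0.77 (SE 0.09, adjusted p = 4.2e-05). Its mean was 6.45 FPKM in siCtrl and 3.80 in siPRMT1 libraries, so the falls of both muscle sums rest largely on this gene. Of the 4 tested smooth muscle markers, Des and Myh11 were called lower, Lmod1 was called higher and Smtn was not called. Smtn had means of 7.80 and 8.34 FPKM. Tnnt3, the other tested skeletal muscle marker, had 0.72 to 0.81 FPKM in siCtrl and 1.06 to 1.22 in siPRMT1 libraries and was not called. The part of these markers in the result was not tested.

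**Figure D3:**
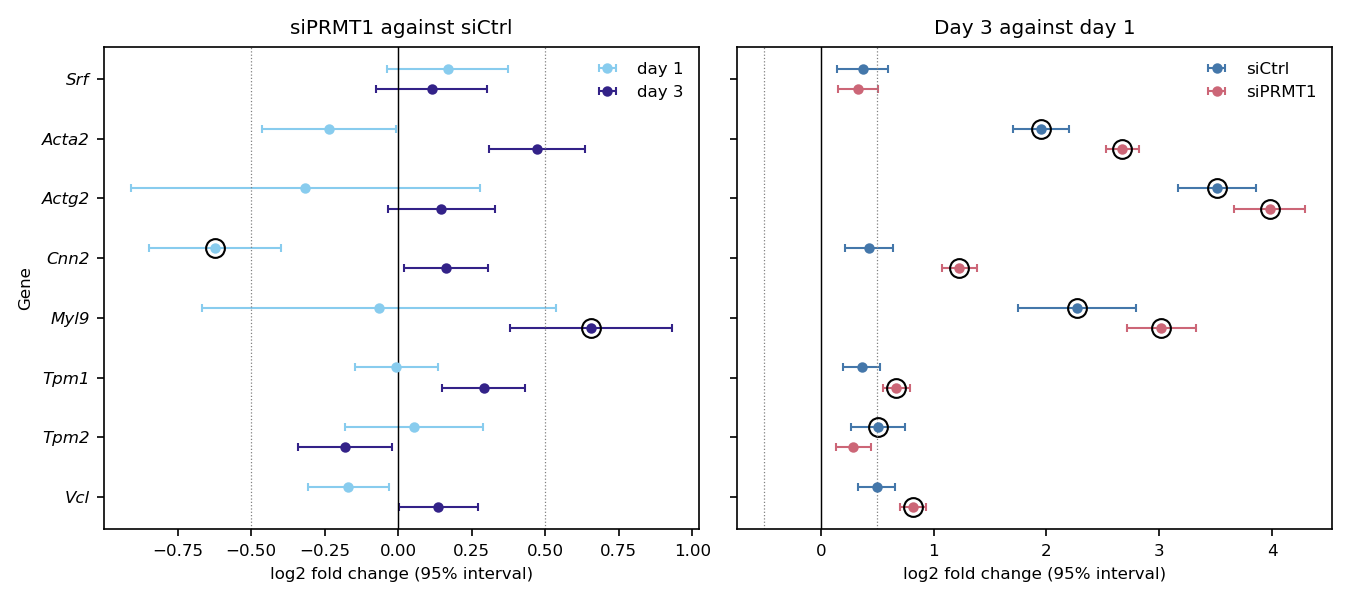
Log2 fold changes of the 8 tested members with 95% intervals, left for siPRMT1 against siCtrl at day 1 (light) and day 3 (dark), right for day 3 against day 1 in siCtrl (blue) and siPRMT1 cells (red). Black rings mark called genes and dotted lines the threshold of 0.5 in either direction. On the left Cnn2 is ringed at day 1 (-0.62) and Myl9 at day 3 (0.66), and on the right all 8 genes lie above 0.

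Whether the knockdown acted differently at the 2 days was tested directly as the interaction of siRNA and day over all 12 libraries. Cnn2 and Acta2 were called. The knockdown difference of Cnn2 was 0.81 higher on the log2 scale at day 3 than at day 1 (SE 0.12, adjusted p = 0.00085), and that of Acta2 was 0.73 higher (SE 0.13, adjusted p = 0.0027). Cnn2 went from -0.62 at day 1 to 0.16 at day 3, where it did not pass the test, and Acta2 from -0.24 at day 1, where it did not pass, to 0.47 at day 3. The test shows that the differences are unequal between the days and not that they are reversed. Each call held in all 12 fits that left out 1 library, with 0.69 for Cnn2 (adjusted p = 0.00021) and 0.64 for Acta2 (adjusted p = 0.0015) without siCtrl day 1 replicate 3. Vcl, at 0.33 (SE 0.08, adjusted p = 0.0173), and Tpm1, at 0.32 (SE 0.08, adjusted p = 0.0233), passed the adjusted p under the fold threshold.
Myl9 had an interaction of similar size, 0.74, with a wide 95% interval from 0.11 to 1.37 (adjusted p = 0.1170). Actg2 had 0.47 (adjusted p = 0.2274), Tpm2 -0.21 (adjusted p = 0.3296) and Srf -0.03 (95% interval -0.34 to 0.27, adjusted p = 0.9121). The knockdown difference of Srf itself was thus not shown to differ between the days. The 2 members called higher stand against 4.77% of 14612 genes called higher and 3.47% lower. The same interaction is the difference between the courses of siPRMT1 and siCtrl cells given above.

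The rest of the pathway was followed in 7 lists of 84 genes: SRF cofactors, other SRF target genes, other actin isoforms, other thin filament and Z-disc proteins, myosin II and its control, the focal adhesion plaque, and actin assembly and turnover. At day 1, 2 of the 76 tested were called, both lower, where 1.61% of all genes were called lower and 1.95% higher, so the share called in the lists is near that of all genes. The median over the 76 was -0.09, and 26 of the 76 were positive, against 51.7% of all genes. Tmsb4x, which encodes the actin monomer binder thymosin beta 4, had 109.54, 103.56 and 96.38 FPKM in siCtrl and 70.89, 70.13 and 70.98 in siPRMT1 libraries, a log2 fold change of -0.60 (SE 0.07, adjusted p = 0.0047). Mylk, the kinase that phosphorylates myosin light chains such as MYL9, had 2.78, 3.06 and 3.05 FPKM in siCtrl and 2.48, 1.9 and 2.09 in siPRMT1 libraries, with -0.51 (SE 0.11, adjusted p = 0.0345). Both fell without overlap between the groups. The Mylk call was lost when any 1 of the 3 siCtrl libraries was left out, and likewise for siPRMT1 day 1 replicate 2 or siPRMT1 day 1 replicate 3, and the log2 fold change then ranged from -0.55 to -0.45. Called higher were 0 of the 76 by edgeR and by DESeq2, with 3 at an unadjusted p under 0.05 by edgeR.

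At day 3, 4 of 77 pathway genes were called higher and 1 lower, where 2.84% of all genes were called higher and 3.8% lower, so the share called is again near that of all genes. The median log2 fold change was 0.12, and 59 of the 77 were positive, against 51.3% of all genes. Among SRF targets, Fhl2, a LIM domain cofactor, had 9.07, 9.06 and 10.55 FPKM in siCtrl and 15.09, 16.95 and 16.08 in siPRMT1 libraries, and rose by 0.74 (SE 0.09, adjusted p = 7.4e-05). Cyr61, a matricellular protein induced by SRF and YAP, rose by 0.59 (SE 0.08, adjusted p = 8.6e-05). Lmod1, the smooth muscle leiomodin that nucleates actin filaments, rose by 0.54 (SE 0.12, adjusted p = 0.0058) from levels of 1.49 to 1.9 FPKM. Without siCtrl day 3 replicate 3 it was 0.45 and not called.
Tes (testin, of focal adhesions) rose by 0.60 (SE 0.09, adjusted p = 0.00031). The other way went Myh11, the smooth muscle myosin heavy chain that partners MYL9 in muscle. It had 1.1, 1.1 and 1.13 FPKM in siCtrl and 0.56, 0.65 and 0.62 in siPRMT1 libraries, a log2 fold change of -0.87 (SE 0.12, adjusted p = 0.00018). Myl9 was therefore higher and Myh11 lower in the same siPRMT1 libraries, both without overlap between the groups. Of the light chains in the myosin II list, Myl12a and Myl12b were more abundant than Myl9 and were not called. At day 3 their means were 209 and 116 FPKM in siCtrl and 210 and 124 FPKM in siPRMT1 libraries. Myh9, the most abundant heavy chain of the myosin II list, had 124 to 131 FPKM in siCtrl and 133 to 157 in siPRMT1 libraries. It was not called.

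**Figure D4:**
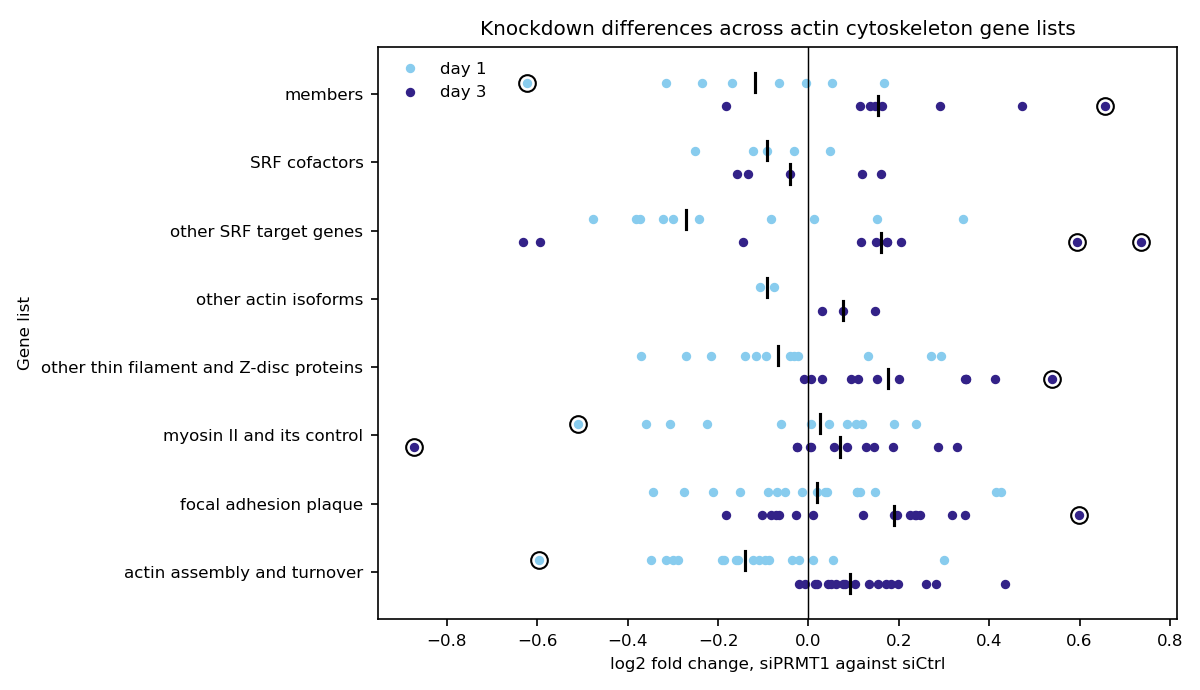
Log2 fold changes of siPRMT1 against siCtrl for every tested gene of the 8 members and the 7 pathway lists, at day 1 (light) and day 3 (dark). Black strokes are list medians and rings mark called genes. The medians of the members are -0.12 at day 1 and 0.15 at day 3.

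By list, the median log2 fold change was lower than 0 on day 1 and higher than 0 on day 3 for 4 of the 7. These were the other SRF targets (10 tested), at -0.27 and 0.16, the other actin isoforms (2 and 3 tested), at -0.09 and 0.08, the other thin filament and Z-disc proteins (12 tested), at -0.07 and 0.18, and actin assembly and turnover (18 tested), at -0.14 and 0.09. The median of the myosin II list (12 tested) was 0.03 and 0.07, and that of the focal adhesion plaque (17 tested) 0.02 and 0.19, while the SRF cofactors stood at -0.09 and -0.04. The calls behind these medians are few, so they describe the lists and were not tested.

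In SRF cofactors, 5 of 6 were tested at each day and 0 were called at either, by edgeR and DESeq2, with 1 at an unadjusted p under 0.05 at day 1 and 0 at day 3. Mkl1, which encodes the cofactor MRTF-A, had a log2 fold change of -0.03 (95% interval -0.30 to 0.23) on day 1 and one of 0.12 (95% interval -0.07 to 0.31) at day 3. Myocd, the cofactor of smooth muscle cells, did not pass the filter on low counts. Over the course in siCtrl cells, while all 8 members rose, 8 pathway genes were called higher and 21 lower among 77, with a median of -0.21, where 22.7% of all genes were called higher and 20.4% lower. In siPRMT1 cells, 11 were called higher and 13 lower among 77, with a median of 0.09, where 19% of all genes were called higher and 17.4% lower. In siCtrl cells, Mkl1 fell by 0.99 (SE 0.13, adjusted p = 9.5e-05), and Tes fell by 1.40 (SE 0.11, adjusted p = 2.6e-06). Mkl1 had 23.98, 23.74 and 31.71 FPKM in siCtrl libraries at day 1, the last in the library that stood apart. In the same libraries Ctgf, an SRF and YAP target, rose by 4.04 (SE 0.22, adjusted p = 2.3e-07), Myh11 by 3.40 (SE 0.18, adjusted p = 2.2e-07) and Mylk by 1.04 (SE 0.10, adjusted p = 1.5e-05). Ctgf had 48 counts over the 3 siCtrl libraries at day 1. Of the 10 tested other SRF target genes, Ctgf was the 1 called higher, while Egr1, Fhl2 and Fos were called lower. The median of that list was -0.35, and 7 of the 10 were negative.

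The profiles of the 8 members over the 12 libraries were averaged as standardised log2 CPM. The correlation of each member with this mean, of which it is itself a part, so that a high value is partly built in, ran from 0.856 for Srf to 0.992 for Acta2. Across 12460 other genes, the profiles most like this mean were those of Cryab (r = 0.994), Bid_1 (0.993), Cdc42ep2 (0.992), Comtd1 (0.991) and Hif3a (0.990). Cryab, a small heat shock protein, had mean levels of 7.64 and 6.40 FPKM in siCtrl and siPRMT1 cells at day 1 and 26.6 and 37.7 FPKM at day 3. The 12 libraries share 4 conditions, so such a correlation describes the common step from day 1 to day 3, and no test was made of it.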

How the data were processed

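RNA from 3T3-L1 cells (12 libraries, 4 conditions of 3) was analysed. Read filtering by the authors used cutadapt 1.11, and mapping used HISAT2 2.1.0 (mm10). RSEM 1.2.6 is also listed in the submitters' processing notes, without a role. The deposited counts are whole numbers per gene without normalization. The deposited FPKM divide these counts by gene length and library total, and recomputed values differed by at most 0.005.

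Members and lists were chosen with earlier results of these data known. Counts were tested with edgeR 4.0.16 (quasi-likelihood, TMM, filterByExpr, Benjamini-Hochberg): siPRMT1 against siCtrl at each day, day 3 against day 1 per siRNA (6 libraries each), and the interaction (12 libraries). Each SE was taken from the F statistic, as the size of the log2 fold change over the root of F. Fits were tested on simulated data. Named were all 10 members, Prmt1, the 2 called genes of lowest p per pathway list and knockdown comparison, and the 5 genes most like the members' mean profile. Acta1, Actb, Actg1, Pcsk7, Mkl1, Myocd, Ctgf, Egr1, Fos, Myh9, Myl12a, Myl12b, Cald1, Cnn3, Dstn, Fhl1 and the single markers were named after their values were seen. So were Fhl2, Tes, Myh11 and Mylk over the course. Alternatives were DESeq2 1.42.0, RLE normalization, other filters, no fold threshold, the replicate number as a term, 1 model for 12 libraries, each library left out, and limma 3.58.1 on log2(FPKM + 1) or log2(FPKM + 0.1). Deviations of same-numbered libraries were correlated in some cases and opposed in others (r from -0.417 to 0.489), so numbers were not taken as pairs. Shared windows used GENCODE M21 transcripts on GRCm38, and promoters RefSeq. Depth was 15116462 to 42357137 counts.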

Additional observations from a re-analysis of the deposited data

Results flagged for a closer look

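A knockdown difference that itself differed between day 1 and day 3, by the interaction of siRNA and day in edgeR over all 12 libraries, was found for 2 of the 8 tested members. In the pathway lists it was called for 10 of 77 genes, 9 higher and 1 lower, where 4.77% of all genes were called higher and 3.47% lower. Of these 10, 6 are among the genes named for a call at 1 of the days, which favours a difference between days, and the other 4 were Cald1, Cnn3, Dstn and Fhl1. For the members, the difference at day 3 minus that at day 1 was 0.81 for Cnn2 and 0.73 for Acta2 on the log2 scale. For the 6 named pathway genes it was 1.05 for Tmsb4x, 0.94 for Cyr61, 0.92 for Lmod1, 0.74 for Fhl2, 0.58 for Mylk and -1.09 for Myh11. Tmsb4x went from a log2 fold change of -0.60 at day 1 to 0.43 at day 3, and Cyr61 from -0.32 to 0.59. The Lmod1 value missed the adjusted p, at 0.052 to 0.073 from edgeR, without siPRMT1 day 1 replicate 1 or 2, siCtrl day 3 replicate 1 or 3, or any of the siPRMT1 day 3 libraries. With 3 libraries per condition, single libraries were not tested as outliers; siCtrl day 1 replicate 3 stood apart from its replicates by chi-square per gene (50.6 and 30.8, against 4.14 to 15.8 for all other pairs), and the interaction without it was 0.69 for Cnn2 and 0.64 for Acta2.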

How the results depend on the processing

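Of 680 log2 fold changes of the members under the alternatives, 638 kept their direction and side of the threshold, 18 passed it newly, 11 lost it and 13 changed sign. Without the fold threshold, members called higher numbered 3 instead of 1 for the knockdown at day 3, 8 instead of 4 for the course in siCtrl and 4 instead of 2 for the interaction, and pathway genes called numbered 2 higher and 5 lower at day 1 and 16 higher at day 3. With limma and no filter on FPKM, 0 members were called at either day: Cnn2 at day 1 had an adjusted p of 0.066 and Myl9 at day 3 one of 0.065. Leaving out 1 library gave 0 to 1 members lower at day 1, 1 to 2 higher at day 3 and 3 to 6 higher over the course in siCtrl, and 0 to 2 pathway genes higher and 1 to 2 lower at day 1. Signs turned in uncalled values near 0: Tpm1 at day 1 was 0.043, 0.044 and 0.043 under the limma fits. Over the fits without 1 library, the day 1 values ran from -0.046 to 0.011 for Tpm1, from -0.26 to 0.16 for Myl9 and from -0.020 to 0.13 for Tpm2, and the Srf interaction from -0.13 to 0.058; without a filter on low counts it was 0.012. With the replicate block, members called numbered 1 lower at day 1, 1 higher at day 3, 4 and 6 higher over the courses and 2 higher for the interaction, as without it. The causes were not tested. Precision was limited by 3 libraries per condition and, for Myl9 and Actg2 at day 1, by low counts.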
